A study of Mus musculus with 18 samples.

Results

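Autophagy and lysosome genes were examined in leukemia stem cells (LSCs) taken from mice whose bone marrow stroma either carried or lacked a Prx1-Cxcl12 mutation. The set was given as 39 gene symbols, split into 18 autophagy genes, 11 genes for lysosomal membrane proteins and enzymes, and 10 genes of the lysosomal proton pump, with the cathepsins left out. All 39 were found among the 54347 genes of the table, and all 39 were among the 12973 genes with enough counts to be tested. None of the 39 passed the test between mutant and control mice, and the estimated differences were small: the median log2 fold change was -0.02, and the values ran from -0.55 to 0.14.

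The mice were of the C57BL/6JRj strain; at day 30 of the leukemia 7000 LSCs per mouse were sorted from the bone marrow, and the RNA was read at its 3' ends by a MARS-seq protocol adapted to bulk samples. The 4 control mice have the label Prx1-Cxcl12-wild type and the 5 mutant mice the label Prx1-Cxcl12-mutant. They are called here by the mouse numbers of the labels: controls 1, 2, 3 and 4, and mutants 6, 7, 8, 10 and 12. Each mouse gave 2 technical libraries, whose counts were summed, so that the mouse is the replicate. Prx1 marks limb mesenchyme and the marrow stroma that comes from it, so the labels describe the surroundings of the LSCs. The sex and age of the mice, the oncogene used and the sorting markers are not stated in the labels.

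Autophagy encloses cytoplasm in a double membrane, the autophagosome, and delivers it to the lysosome for breakdown. The ATG proteins build that membrane and attach proteins of the LC3 and GABARAP families to it, cargo receptors such as p62 bind those proteins, and the vesicle then fuses with a lysosome. A proton pump, the V-ATPase, keeps the lysosome acid so that its enzymes can work, and the transcription factors TFEB and TFE3 are known for switching on many of these genes when nutrients are short. Transcript levels say how much message was present; they do not measure how fast material passes through the pathway.

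Summed counts per mouse ran from 11766467 to 25485899, with controls at 16784991 or less and 4 of the 5 mutants above that. The 16 listed genes of myeloid progenitors and leukemia, such as Kit, Mpo, Hoxa9 and Meis1, were all tested. They summed to between 10720 and 12540 CPM (counts scaled to a common library total) in the controls. In the mutants the sums lay between 9894 and 18430 CPM. Prtn3, Ctsg and Elane, with control means of 4423, 2997 and 2156 CPM, made up most of these sums. Kit (25.55 ± 1.99 CPM in controls, 19.01 ± 2.45 CPM in mutants) had every mutant below every control without being called (edgeR adjusted p = 0.254). The log2 fold change was 0.61 for Ctsg, 0.50 for Mpo, -0.23 for Hoxa9 and -0.10 for Meis1. The 13 macrophage genes summed to between 101.4 and 118.9 CPM in the controls and between 82.9 and 122.5 CPM in the mutants. Only 4 were tested, and Mrc1 and Mertk stood at or under 3 counts in every mouse. C1qa, C1qb, C1qc, Cd163, Cd5l, Axl and Trem2 had 0 to 14 counts per mouse, so the sums came almost wholly from the 4 tested genes. Of the 4, Adgre1 (40.1 ± 4.92 CPM in controls, 27.8 ± 3.64 CPM in mutants) and Apoe (10.4 ± 1.16 and 7.42 ± 0.61 CPM) had every mutant below every control without being called (edgeR adjusted p = 0.176 and 0.254), while Cd68 (30.8 ± 6.36 and 31.3 ± 2.39 CPM) and Vcam1 (27.6 ± 5.81 and 33.03 ± 13.4 CPM) overlapped. A list of 10 mature neutrophil genes summed to between 453.2 and 973.5 CPM in the controls and between 228.4 and 471.9 CPM in the mutants, with no gene at 0 in every mouse. Cxcl12 had 0, 0, 0 and 1 counts in the controls and 1, 1, 2, 2 and 4 in the mutants; since the mutation is labelled for the stroma, these counts check nothing about it. In bulk RNA, fewer cells of a type and less RNA per cell cannot be told apart.

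The mutant and control mice were compared by edgeR's quasi-likelihood test, with p-values adjusted by the Benjamini-Hochberg method over all 12973 genes. At an adjusted p under 0.05, 0 of the 39 genes were called, where 9 of all genes were, or 0.0694%; DESeq2 also called 0 of the 39. At an unadjusted p under 0.05, 0 of the 39 were higher in the mutants against 4.96% of all genes, and 1 was lower, Mcoln1, against 4.89% of all genes. In 0 of the 39 did every mutant lie above every control, against 1.87% of all genes. In 0 of the 39 did every mutant lie below every control, against 2.13% of all genes. The smallest adjusted p among the 39 in the edgeR fit was 0.507.

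A test that is not passed does not show that levels were equal, so the intervals of the differences carry more of the result. For 36 of the 39 genes, 92.3%, the 95% interval of the fold change lay within 1.5-fold in both directions, and for 38 of the 39, 97.4%, within 2-fold. Over all tested genes these shares were 60.8% and 84.3%. The genes whose intervals ran past 1.5-fold were Atg9a, Tfeb and Atp6ap1, and only that of Atg9a ran past 2-fold. The estimates were also close to 0: the median size of the log2 fold change was 0.08 for the 39 genes and 0.14 for all tested genes, and the median standard errors (SE) were 0.11 and 0.15. At the median the 39 genes were thus estimated more precisely than the tested genes as a whole. The smaller sizes and narrower intervals therefore do not show by themselves that these genes changed less than others. By sign, 16 genes lay above 0 and 23 below, and over all tested genes the median was 0.01.

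**Figure D1:**
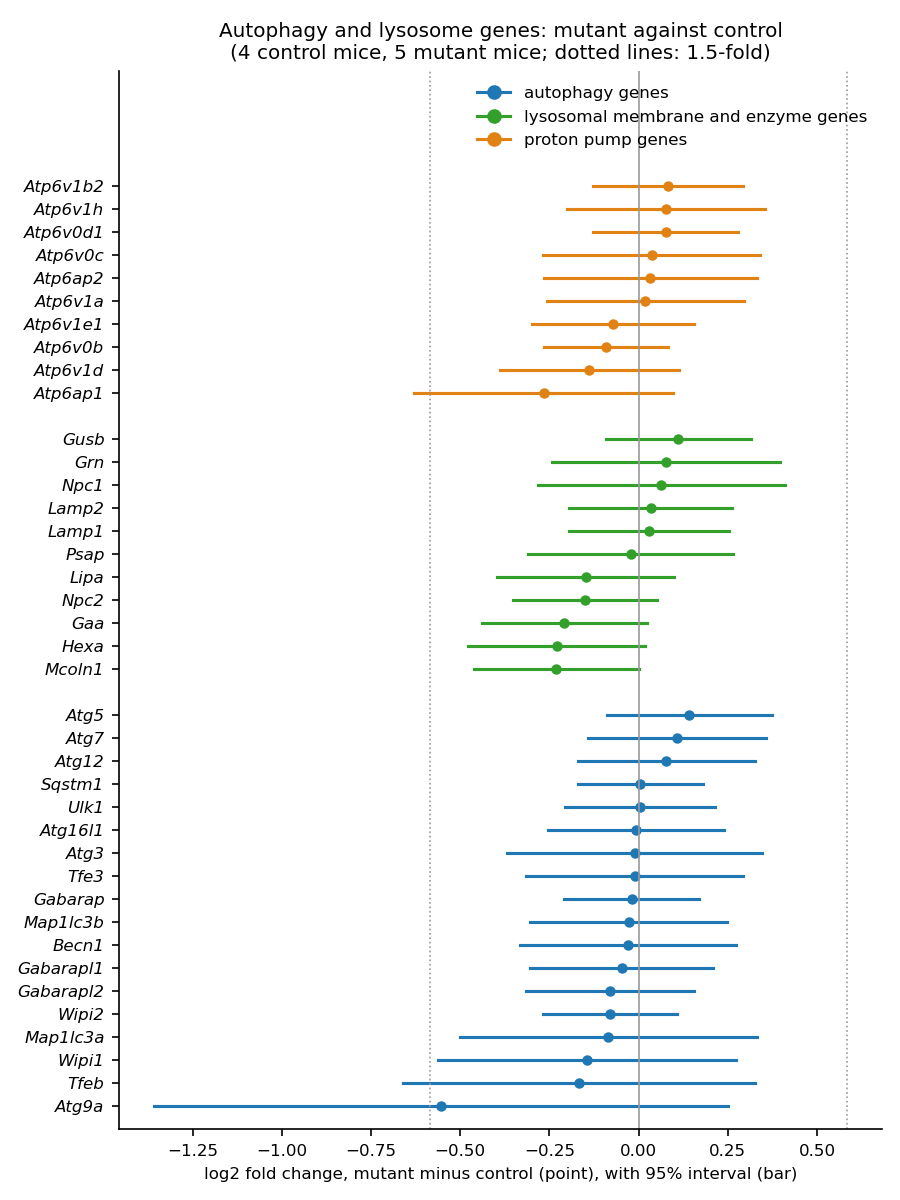
Log2 fold change of each gene, mutant minus control, as a point with its 95% interval as a bar, grouped by role; n = 4 control and 5 mutant mice, and dotted lines mark 1.5-fold. Most points lie near 0, and the widest bar is that of Atg9a, which has a log2 fold change of -0.55.

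Among the autophagy genes, 5 estimates lay above 0 and 13 below, with a median log2 fold change of -0.02 and 0 calls. Tfeb, a master regulator of lysosomal genes, had 4.50, 7.60, 4.70 and 5.81 CPM in controls 1 to 4 and 6.28, 3.49, 4.55, 4.35 and 6.70 CPM in mutants 6, 7, 8, 10 and 12. The groups overlapped throughout, control 2 being the highest of all mice and mutant 7 the lowest. The log2 fold change was -0.17 with an SE of 0.23, and the interval of the fold ran from 0.633 to 1.25. Without control 2 the sign of the difference turned (0.01). Tfe3, its close relative, had a narrower spread, with 7.28 ± 0.79 CPM (SD, n = 4) in controls and 7.23 ± 0.88 CPM (SD, n = 5) in mutants, and a sign that turned under several settings. Values after ± are SDs over these same mice throughout.

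TFEB and TFE3 are known to bind a short palindrome, TCACGTGA, which contains the E-box CACGTG. The RefSeq promoter windows of the GRCm38.p6 build, from 250 bases before a gene's start to 50 bases after it, covered 32 of the 39 genes. TCACGTGA occurred, read on both strands, in the windows of 4 of these 32 genes, 12.5%, against 2.21% of the 9212 tested genes with a window and 1.12% of all 27025 genes with one. The shorter CACGTG, which the longer word includes, occurred in 9 of the 32, 28.1%, against 12% of tested genes. The 4 stretches are printed because they join these regulators to 1 autophagy, 2 pump and 1 lysosomal channel gene of the set; capitals mark the palindrome, and each reads 5' to 3' on the gene's own strand.
Atg3 (chr16:45158731-45158790, plus strand): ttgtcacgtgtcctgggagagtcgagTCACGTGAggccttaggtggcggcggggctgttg
Atp6v0d1 (chr8:105566035-105566094, minus strand): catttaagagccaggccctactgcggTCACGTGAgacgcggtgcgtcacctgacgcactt
Atp6v1a (chr16:44139358-44139417, minus strand): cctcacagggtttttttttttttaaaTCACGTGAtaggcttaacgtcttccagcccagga
Mcoln1 (chr8:3500447-3500506, plus strand): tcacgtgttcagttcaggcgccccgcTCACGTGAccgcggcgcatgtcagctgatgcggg
A match of letters is a description of the window and not evidence that a factor was bound there in these cells.

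The 4 genes with the palindrome did not share a direction. Their log2 fold changes were -0.01 for Atg3, 0.08 for Atp6v0d1, 0.02 for Atp6v1a and -0.23 for Mcoln1. None of the 4 was called. Atp6v0d1, a stalk subunit of the pump's membrane part, had 147.9 ± 8.35 CPM (SD, n = 4) in controls and 155.9 ± 14.9 CPM (SD, n = 5) in mutants. Atp6v1a, the catalytic subunit, averaged 69.2 ± 12.8 CPM in controls, against 70.2 ± 6.43 CPM in mutants.

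Next come genes that act early in autophagosome formation. Ulk1, the kinase that triggers the process, had 25.8, 24.9, 23.2 and 21.6 CPM in controls 1 to 4 and 24.2, 21.7, 25.5, 26.1 and 22.0 CPM in mutants 6, 7, 8, 10 and 12. Its groups overlapped over their whole range, and the log2 fold change was 0.00 with an SE of 0.10. Becn1, a part of the lipid kinase complex that acts next, averaged 47.6 ± 9.54 CPM in controls, against 46.6 ± 5.65 CPM in mutants. Wipi2, which reads the lipid made by that complex, averaged 31.5 ± 2.40 CPM in controls, against 29.8 ± 1.71 CPM in mutants, a log2 fold change of -0.08 with an SE of 0.09 that turned to 0.05 in the second technical libraries alone. For its relative Wipi1 the levels were 39.5 ± 8.37 CPM (controls) and 35.8 ± 9.49 CPM (mutants), and its between-mouse spread was among the widest of the set.

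The enzymes that attach LC3 and GABARAP proteins to the membrane included the highest estimate of the set. Atg5, which forms a conjugate with Atg12, had 27.5, 28.2, 25.95 and 28.6 CPM in controls 1 to 4 and 35.9, 33.4, 26.4, 27.0 and 29.4 CPM in mutants 6, 7, 8, 10 and 12. Mutants 6, 7 and 12 lay above all controls, and mutants 8 and 10 lay within the controls' range. Between the groups the log2 fold change was 0.14 with an SE of 0.11 (edgeR adjusted p = 0.684), and it was 0.08 without mutant 6. Atg7, the activating enzyme of both conjugation routes, had a log2 fold change of 0.11 with an SE of 0.12. Control 1, at 25.7 CPM, was the lowest of the 9 mice for Atg7, and without control 1 the log2 fold change of Atg7 was 0.01. Atg3, the enzyme that passes LC3 to its lipid, averaged 78.8 ± 14.6 CPM in controls, against 78.2 ± 16.4 CPM in mutants, and Atg16l1, the scaffold of the conjugate, 18.7 ± 2.02 and 18.6 ± 2.00 CPM. Atg12, the small protein joined to Atg5, had 87.9 ± 14.5 CPM in the 4 controls and 92.8 ± 7.93 CPM in the 5 mutants, a log2 fold change of 0.08 with an SE of 0.11.

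The 5 LC3 and GABARAP genes all had estimates slightly below 0, from -0.09 to -0.02 on the log2 scale, and none was called. Gabarap had 167.8, 198.6, 185.3 and 195.6 CPM in controls 1 to 4 and 180.5, 173.1, 197.1, 196.0 and 174.4 CPM in mutants 6, 7, 8, 10 and 12. This was the narrowest spread of the set, 1.18-fold from the lowest mouse to the highest, and the groups overlapped. In the edgeR fit the log2 fold change of Gabarap was -0.02 with an SE of 0.09. Map1lc3b, which encodes the LC3 form most used as an autophagosome marker, had 140.4, 176.5, 183.3 and 183.6 CPM in the controls and 175.7, 156.2, 191.5, 185.8 and 129.4 CPM in the mutants. Control 1 and mutant 12 were the low mice of their groups, and the log2 fold change was -0.03 with an SE of 0.13. For Gabarapl2 the same 2 mice were lowest, at 71.4 and 66.9 CPM, with a log2 fold change of -0.08 and an SE of 0.11. Gabarapl1 stood at -0.05 with an SE of 0.12, and Map1lc3a, at 2.53 to 4.09 CPM per mouse, at -0.09 with an SE of 0.19. With a mouse left out, Gabarapl2 ran from -0.16 to -0.02 and Map1lc3a from -0.20 to -0.01. The sign turned at least once for Map1lc3b, Gabarap and Gabarapl1 when a mouse was left out.

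Sqstm1 encodes p62, a cargo receptor that is itself degraded with its cargo. It had 46.0, 44.7, 49.3 and 43.6 CPM in controls 1 to 4 and 46.4, 48.8, 46.1, 41.1 and 47.7 CPM in mutants 6, 7, 8, 10 and 12. The groups overlapped over nearly their whole range, and the fold change was 1.0 with a 95% interval from 0.888 to 1.13. The sign of its difference turned under several other settings.

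Atg9a, which encodes the membrane protein that seeds autophagosomes, had the lowest estimate of the set and the fewest counts. Its row had only 11, 10, 13 and 10 counts in controls 1 to 4 and 9, 12, 10, 5 and 14 counts in mutants 6, 7, 8, 10 and 12. Mutants against controls, the log2 fold change was -0.55 with an SE of 0.37 (edgeR adjusted p = 0.641), and the interval of the fold ran from 0.39 to 1.19. With the log2 total count of the mouse as a covariate the log2 fold change of Atg9a was -0.16. Scaled to CPM, mutant 10 was the lowest mouse, and mutant 12, at 0.83 CPM, lay within the controls' range of 0.59 to 0.89 CPM.

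The annotation on GRCm38 places Atg9a on the minus strand of chromosome 1, from 75180860 to 75192196, and a readthrough model, Gm29253, on the same strand from 75171731 to 75185146. Gm29253 contains the last 300 bases of an annotated Atg9a transcript without a mismatch, and it also overlaps the neighbour Abcb6 (75171717 to 75180392). In libraries read at the 3' end, reads from that transcript end would fall into the stretch that both models hold. Gm29253 had 656 to 927 counts per mouse and Atg9a only 1.37% of the counts of the pair, while Abcb6 had 9 to 40 counts. Whether the counts of Gm29253 came from the end of Atg9a or from that of Abcb6 cannot be told apart in this table.

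Gm29253 was looked up after the values had been seen. It had 51.8, 46.8, 49.6 and 46.1 CPM in controls 1 to 4 and 37.1, 28.9, 38.7, 42.7 and 43.1 CPM in mutants 6, 7, 8, 10 and 12. Every mutant lay below every control. The log2 fold change was -0.35 with an SE of 0.11, an unadjusted p of 0.00899 and an edgeR adjusted p of 0.345. With Atg9a and Gm29253 summed to 1 gene, the levels were 49.3 ± 2.78 CPM (SD, n = 4) in controls and 38.6 ± 5.78 CPM (SD, n = 5) in mutants, a log2 fold change of -0.36 with an SE of 0.11 (edgeR adjusted p = 0.345). The summed value was not called either, but its interval, from -0.60 to -0.11 on the log2 scale, did not reach 0.

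**Figure D2:**
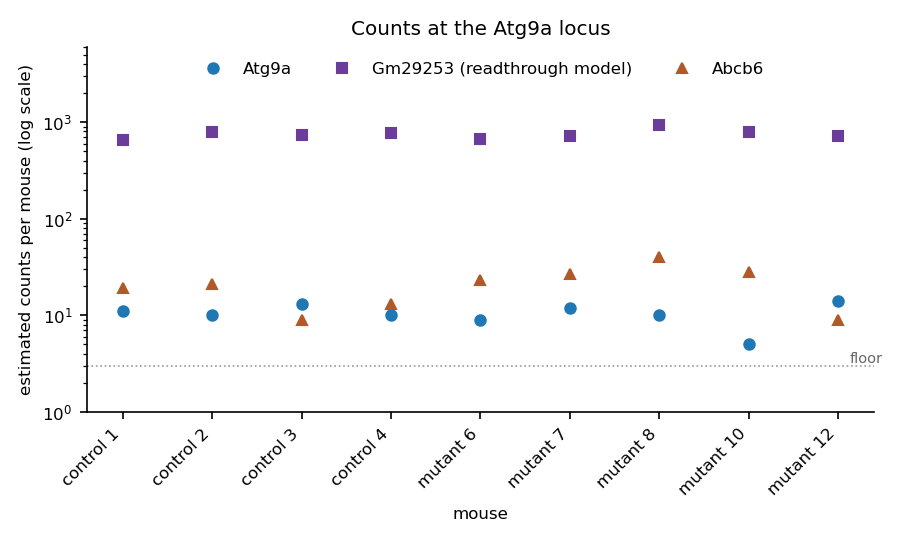
Estimated counts per mouse, on a log axis, of Atg9a, of the readthrough model Gm29253 and of Abcb6; the dotted line marks the floor of 3 counts. Gm29253 holds 656 to 927 counts in each mouse, and Atg9a 5 to 14.

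Among the lysosomal membrane and enzyme genes, 5 estimates lay above 0 and 6 below, with a median log2 fold change of -0.02 and 0 calls. Lamp1 and Lamp2 encode the most abundant proteins of the lysosomal membrane. Lamp1 had 401.1, 381.2, 360.1 and 468.8 CPM in controls 1 to 4 and 393.0, 412.2, 395.2, 472.9 and 381.0 CPM in mutants 6, 7, 8, 10 and 12. Control 4 and mutant 10 were the high mice, at nearly the same level, and the groups overlapped. Between the groups the log2 fold change of Lamp1 was 0.03 with an SE of 0.10, and that of Lamp2 was 0.03 with an SE of 0.11; both signs turned when single mice were left out.

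Mcoln1, on chromosome 8 from 3500457 to 3515232, encodes the calcium channel TRPML1 of the lysosome. It had 14.9, 15.1, 14.0 and 15.9 CPM in controls 1 to 4 and 11.95, 12.6, 14.7, 12.8 and 11.6 CPM in mutants 6, 7, 8, 10 and 12. Only mutant 8 lay within the range of the controls, and the other 4 mutants were below it. The means were 14.99 ± 0.79 CPM (SD, n = 4) and 12.8 ± 1.21 CPM (SD, n = 5), a log2 fold change of -0.23 with an SE of 0.11. The unadjusted p was 0.0498 and the edgeR adjusted p 0.507, so it was not called. The unadjusted p of Mcoln1 lay above 0.05 with DESeq2 (0.0641) and limma-voom (0.0501). In edgeR it was 0.0995 with no low-count filter and 0.0986 without the first library of mutant 7. With a mouse left out the edgeR p was 0.0478 without control 3, 0.0209 without mutant 8 and 0.072 to 0.125 otherwise. It stayed under 0.05 with other scaling methods, a 10 CPM filter or the log2 total count as a covariate. In the first and second technical libraries alone the log2 fold change was -0.33 and -0.16 (edgeR unadjusted p = 0.0381 and 0.301).

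Hexa and Gaa encode enzymes whose loss causes Tay-Sachs disease and Pompe disease. Hexa, on chromosome 9 from 59539540 to 59565109, had 226.0, 248.9, 266.9 and 278.0 CPM in controls 1 to 4 and 216.7, 167.7, 230.9, 232.7 and 239.6 CPM in mutants 6, 7, 8, 10 and 12. Mutant 7 was the lowest by a wide step, and control 1 lay among the mutants. In the edgeR fit the log2 fold change was -0.23 with an SE of 0.11 (edgeR adjusted p = 0.537), and -0.15 without mutant 7. Gaa, on chromosome 11 from 119267887 to 119285454, had 40.4, 40.3, 48.5 and 39.2 CPM in the controls and 39.7, 29.6, 39.3, 38.0 and 35.6 CPM in the mutants. Here 1 high control and 1 low mutant set much of the difference. Mutants against controls, the log2 fold change of Gaa was -0.21 with an SE of 0.11 (edgeR adjusted p = 0.537), -0.13 without control 3 and -0.14 without mutant 7.

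The cholesterol transfer proteins stood apart from each other in sign. Npc2, which passes cholesterol to the lysosomal membrane, had 267.8, 339.9, 272.7 and 318.8 CPM in controls 1 to 4 and 275.5, 269.0, 277.1, 272.5 and 256.2 CPM in mutants 6, 7, 8, 10 and 12. Controls 2 and 4 were high, while controls 1 and 3 lay among the mutants. The log2 fold change was -0.15 with an SE of 0.09 (edgeR adjusted p = 0.613), and -0.09 without control 2. Its partner Npc1 had a log2 fold change of 0.06 with an SE of 0.16. Lipa, the lipase that frees the cholesterol, stood at -0.15 with an SE of 0.11.

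The remaining members of the group were Gusb, a sugar hydrolase, Psap, the precursor of enzyme activators, and Grn, the progranulin gene. Gusb averaged 147.8 ± 13.8 CPM in controls, against 159.6 ± 11.3 CPM in mutants, a log2 fold change of 0.11 with an SE of 0.09. Psap averaged 94.2 ± 13.7 CPM in controls, against 92.8 ± 14.97 CPM in mutants. Grn averaged 238.7 ± 25.1 CPM in controls, against 251.7 ± 53.4 CPM in mutants, where mutant 10 was highest at 319.8 CPM and mutant 12 lowest at 193.1 CPM. None of these differences exceeded the spread between mice.

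**Figure D3:**
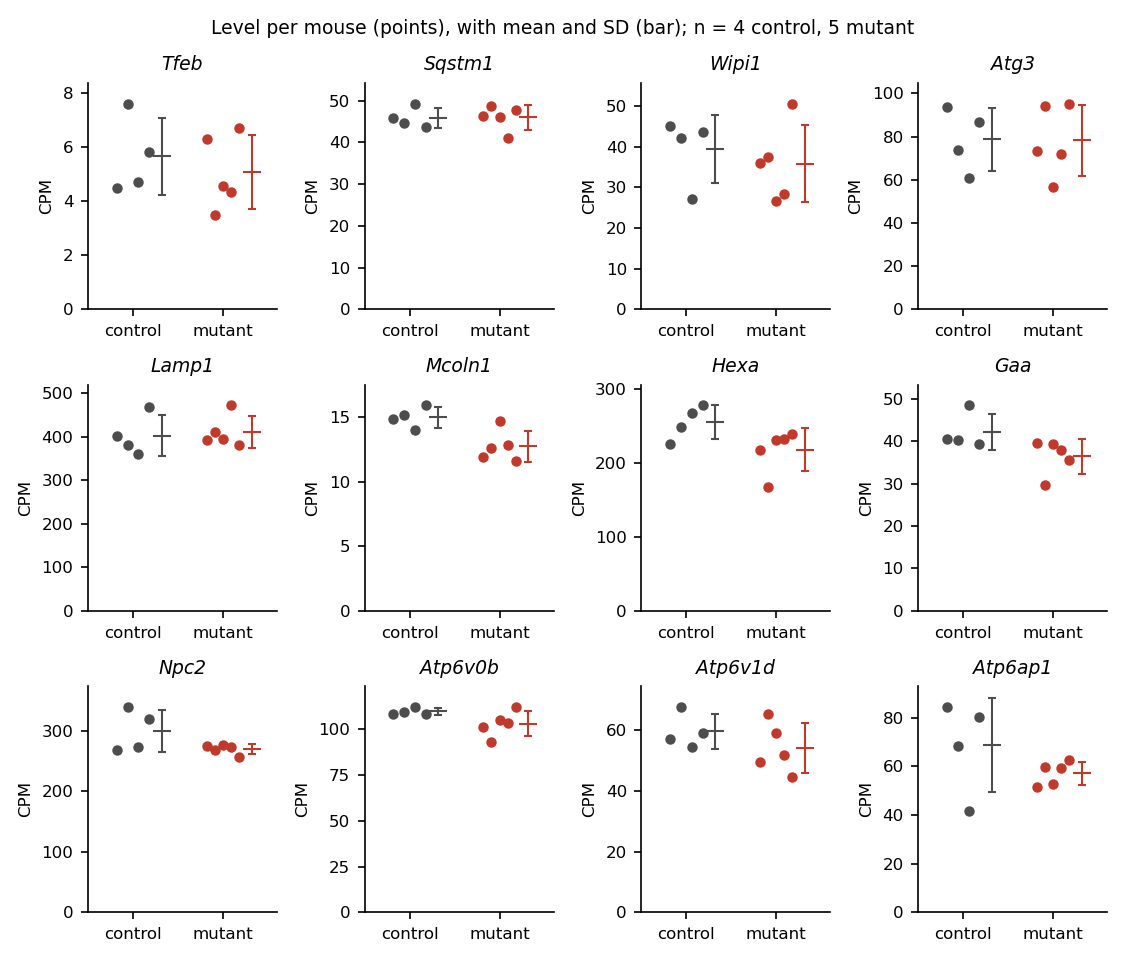
Level of 12 of the genes in each mouse (points) in CPM, with the mean and SD beside the points; each panel's axis starts at 0. Mutants lie mostly below controls for Mcoln1 and overlap with them in every panel.

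The proton pump genes had 6 estimates above 0 and 4 below, with a median log2 fold change of 0.03 and 0 calls. Atp6ap1, on chromosome X from 74297097 to 74304721, encodes an accessory subunit needed to assemble the pump, and it had the lowest estimate of the group. It had 84.6, 68.6, 41.6 and 80.1 CPM in controls 1 to 4 and 51.6, 59.6, 52.9, 59.2 and 62.4 CPM in mutants 6, 7, 8, 10 and 12. Controls 1, 2 and 4 lay above all mutants and control 3 below all of them. Between the groups the log2 fold change was -0.27 with an SE of 0.17 (edgeR adjusted p = 0.62). It depended on that mouse and on the library: it was -0.44 without control 3 (edgeR adjusted p = 0.249), -0.46 in the first technical libraries alone and -0.07 in the second.

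Atp6v0b and Atp6v0c encode proteolipids of the ring that turns in the membrane. Atp6v0b had 108.4, 109.3, 112.2 and 108.4 CPM in controls 1 to 4 and 101.2, 92.8, 104.9, 103.3 and 112.2 CPM in mutants 6, 7, 8, 10 and 12. The controls lay very close together, and 4 of the 5 mutants lay below them. Single libraries differed more: those of control 3 had 125.7 and 101.8 CPM. On the log2 scale, the SD that the 2 libraries of a mouse implied for their mean was 0.11, against 0.08 between mice. In the edgeR fit the log2 fold change was -0.09 with an SE of 0.08 (edgeR adjusted p = 0.729), and the fold interval ran from 0.833 to 1.06; the log2 estimate was -0.19 in the first technical libraries alone and -0.02 in the second. Atp6v0c averaged 659.1 ± 54.1 CPM in controls, against 675.8 ± 140.4 CPM in mutants; mutants 8 and 10, at 770.2 and 872.5 CPM, were the highest of all mice. The pseudogenes Atp6v0c-ps1 and Atp6v0c-ps2 match the end of its transcript almost base for base, and both were listed at 0 counts.

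The subunits of the pump's cytosolic part had estimates on both sides of 0. Atp6v1d, a part of the rotor, had 57.3, 67.8, 54.5 and 59.1 CPM in controls 1 to 4 and 49.5, 65.5, 59.0, 52.0 and 44.7 CPM in mutants 6, 7, 8, 10 and 12. Mutants 6, 10 and 12 lay below all controls, and mutants 7 and 8 within their range. Mutants against controls, the log2 fold change was -0.14 with an SE of 0.12 (edgeR adjusted p = 0.715), and it was -0.07 without control 2, -0.08 without mutant 12 and -0.40 with the log2 total count of the mouse as a covariate (edgeR adjusted p = 0.982). Atp6v1b2, which pairs with the catalytic subunit, averaged 42.6 ± 3.14 CPM in controls, against 45.04 ± 4.71 CPM in mutants, a log2 fold change of 0.08 with an SE of 0.10, or 0.04 without control 3. Atp6v1e1, a stator subunit, stood at -0.07 and Atp6v1h, a regulatory subunit, at 0.08. Atp6ap2, the second accessory subunit, had a log2 fold change of 0.03 with an SE of 0.14.

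The SD between mice of a group was larger than the log2 fold change between groups except for Atg9a, Mcoln1, Hexa, Gaa, Npc2 and Atp6v0b. Control 3 was the lowest control for 16 of the 39 genes, 41.0%, against 28.6% of all tested genes, and control 1 for 15, 38.5%, against 28.4%. Among the mutants, mutant 7 was lowest for 14, 35.9%, against 23.1% of all tested genes. Some genes were low in the same mice. Wipi1, Atg3 and Becn1 were lowest in control 3 among controls and in mutant 8 among mutants, and highest in control 1 and mutant 12.

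Wipi1 showed this most widely. It had 45.2, 42.1, 27.1 and 43.7 CPM in controls 1 to 4 and 35.9, 37.4, 26.6, 28.4 and 50.6 CPM in mutants 6, 7, 8, 10 and 12. Both technical libraries of control 3 were low for it, at 29.5 and 25.3 CPM. The highest mouse had 1.9-fold the level of the lowest. The 3 genes were set side by side after their values had been seen.

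Some other genes were low in control 1 and mutant 12: Map1lc3b, Gabarapl2, Grn, Npc2 and Atp6v1e1 were each lowest in those 2 mice of their groups. Control 1 was the lowest control for 38.5% of the 39 genes, against 28.4% of all tested genes. Mutant 12 was the lowest mutant for 28.2%, against 22.4%. The share of all tested genes lowest in both mice was not counted. These genes, too, were set side by side after their values had been seen. Control 1 and mutant 12 were highest for Wipi1, Atg3 and Becn1 and lowest for these 5. Control 1 was moreover the least deeply sequenced mouse, and mutant 12 the least deeply sequenced mutant, with 11766467 and 15959029 counts; the part of depth was not tested.

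**Figure D4:**
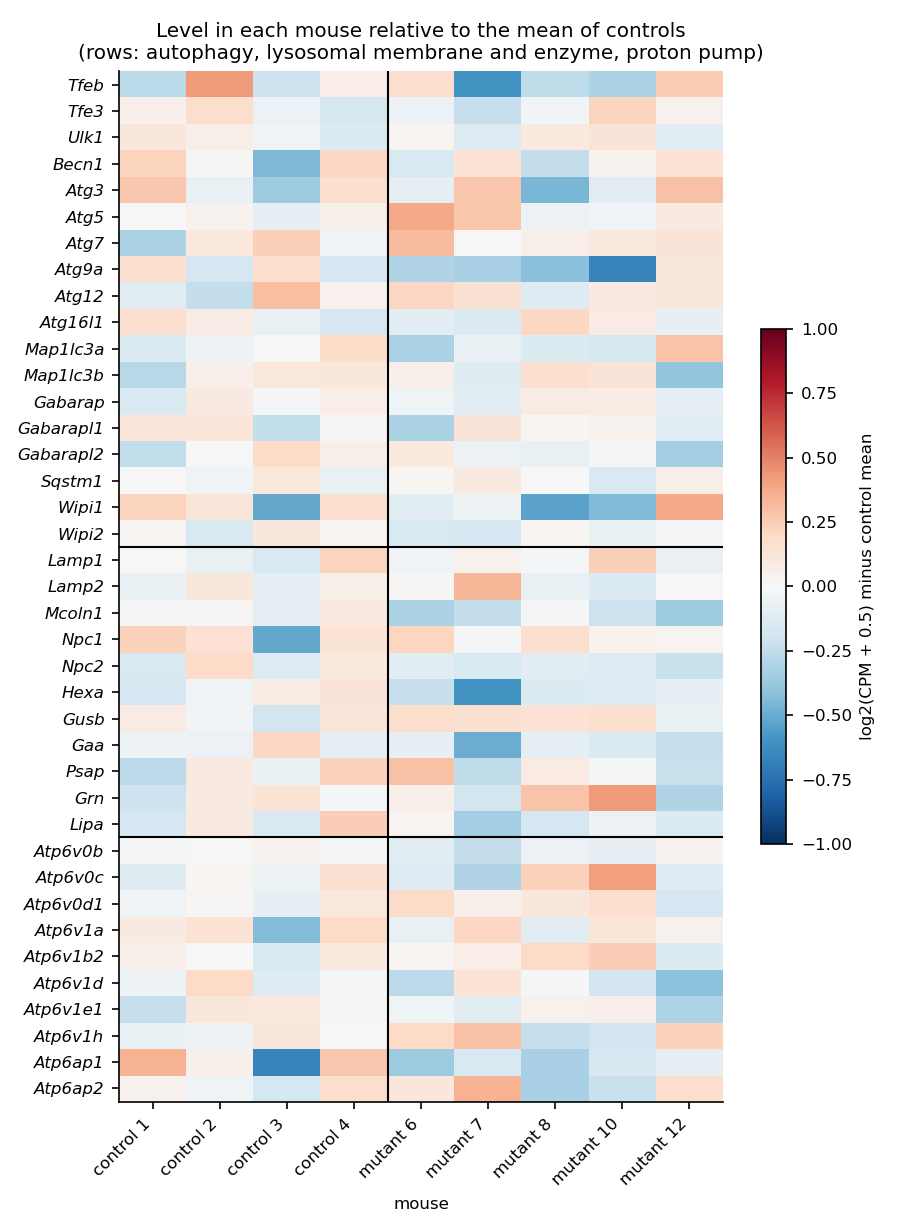
Level of each of the 39 genes in each mouse as log2(CPM + 0.5) minus the mean of the 4 controls, red above and blue below, with black lines between roles and between groups. Control 3 and mutant 8 are blue for Wipi1, Atg3 and Becn1, and no block of genes changes colour at the line between controls and mutants.

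The difference between the 2 libraries of a mouse was compared with the spread between mice. Over the 39 genes the median SD that the difference between the 2 libraries of a mouse implies for their mean was 0.12 on the log2 scale, and the median SD between mice of a group was 0.18. The spread between mice was the larger of the pair in 30 of the 39 genes, and in 8679 of the 12973 tested genes. Map1lc3a, with 0.32 between libraries and 0.19 between mice, Atp6v1h, with 0.28 and 0.20, and Atg9a, with 0.29 and 0.25, were the exceptions with the largest gap. Other exceptions included Atp6v0b, with 0.11 and 0.08, Gaa, with 0.18 and 0.16, and Mcoln1, with 0.12 and 0.11. For all these genes the library noise alone was as large as the spread seen between mice. Atg9a, Atp6v0b, Gaa and Mcoln1 were also among the genes whose log2 fold change exceeded the SD between mice. For Wipi1 the values were 0.18 and 0.35, for Atg3 0.17 and 0.30, and for Atp6v1a 0.07 and 0.22, so that most of their spread lay between mice.

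Summarised by role, each mouse's median distance from the mean of the controls stayed small. For autophagy genes the mouse medians ran from -0.06 in mutant 7 to 0.07 in mutant 12 on the log2 scale. For lysosomal membrane and enzyme genes they ran from -0.19 in mutant 7 to 0.13 in control 4, and for the proton pump from -0.11 in mutant 12 to 0.10 in control 4. In all 3 roles control and mutant mice overlapped.

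Beyond the 39 genes, 6 lists of related genes with 126 members were read from the same fit. Of these, 119 were tested and 0 were called by edgeR; at an unadjusted p under 0.05, 2 were higher in the mutants, 1.68% against 4.96% of all tested genes, and 8 lower, 6.72% against 4.89%. For 2 of the 119, 1.68%, every mutant lay below every control, against 2.13% of all tested genes. The list of other lysosomal enzymes, chosen with earlier results of these data known, had 27 tested genes; 5 of them were lower at an unadjusted p under 0.05, 18.5% against 4.89%, and 1 was higher, 3.7% against 4.96%. By sign, 7 lay above 0 and 20 below, with a median log2 fold change of -0.09 against 0.01 over all tested genes.

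Man2b1, a lysosomal mannosidase, had 410.3, 434.4, 496.9 and 394.0 CPM in controls 1 to 4 and 377.5, 257.9, 333.8, 356.0 and 287.7 CPM in mutants 6, 7, 8, 10 and 12. Every mutant lay below every control. The log2 fold change was -0.43 with an SE of 0.12 (edgeR adjusted p = 0.307). Idua, which breaks down glycosaminoglycans, averaged 17.9 ± 1.90 CPM in controls, against 13.98 ± 1.401 CPM in mutants, a log2 fold change of -0.36 with an SE of 0.12 (edgeR adjusted p = 0.345). Ids, a sulfatase, stood at -0.51 with an SE of 0.21 and Glb1, a galactosidase, at -0.26 with an SE of 0.11, while Dnase2a, a lysosomal DNase, stood at 0.24 with an SE of 0.10. None of these passed the adjusted threshold, and all were named for their values: Man2b1 and Idua have the smallest unadjusted p of their list, and Ids, Glb1 and Dnase2a were picked after their values were seen. The summed level of the mature neutrophil list lay lower in the mutants through Camp, which averaged 386.4 ± 129.2 CPM in controls, against 139.2 ± 47.7 CPM in mutants, while 5 of its 10 genes had estimates above 0, among them Ltf at 4.82 ± 3.67 and 13.5 ± 4.43 CPM. The part of the macrophage and neutrophil genes in these values was not tested. Ctsh, the protease cathepsin H, which was left out of the set with the other cathepsins, was among the 9 called genes of the whole table, with a log2 fold change of -0.79 (edgeR adjusted p = 0.0427).

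In the list of other membrane and sorting proteins, 15 of 25 estimates lay above 0 and 10 below. Cd63, a tetraspanin of lysosomes and of azurophil granules, had 825.1, 815.8, 988.8 and 823.1 CPM in controls 1 to 4 and 708.3, 736.6, 719.6, 756.9 and 571.1 CPM in mutants 6, 7, 8, 10 and 12. All mutants lay below all controls. Between the groups the log2 fold change was -0.31 with an SE of 0.11 (edgeR adjusted p = 0.369). Gnptg, a subunit of the enzyme that tags lysosomal enzymes for delivery, stood at -0.21 with an SE of 0.09 (edgeR adjusted p = 0.467).

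The lists closest to autophagy itself were centred near 0. Of 17 initiation and nucleation genes, 7 lay above 0 and 10 below, with a median of -0.01; Pik3r4, the scaffold of the lipid kinase complex, averaged 13.5 ± 0.69 CPM in controls, against 11.5 ± 0.96 CPM in mutants, a log2 fold change of -0.23 with an SE of 0.11 (edgeR adjusted p = 0.504), and Wdr45b, a WIPI relative, stood at 0.18. Of 17 conjugation, receptor and fusion genes, 7 lay above 0 and 10 below, with a median of -0.02; Snap29, a fusion protein, stood at 0.17 (-0.04 in the second technical libraries alone) and Tecpr1, which binds the ATG12 conjugate, at -0.22. The list of mTORC1 and TFEB control at the lysosome split evenly, 10 above 0 and 10 below. In it Tfec, a relative of Tfeb, averaged 57.7 ± 14.6 CPM in controls, against 76.5 ± 15.8 CPM in mutants, a log2 fold change of 0.41 with an SE of 0.19 (edgeR adjusted p = 0.507), and Lamtor3, a part of the complex that anchors mTORC1 signalling to the lysosome, stood at 0.18. Of 13 other tested genes listed with the pump, not all of them for subunits, 4 lay above 0 and 9 below. Atp6v0a2 stood at 0.19 and Ncoa7, which binds the pump, at -0.19. Several of these values rested on single mice or libraries: Tfec was 0.26 without control 1 and 0.13 with the log2 total count as a covariate, Tecpr1 -0.12 without mutant 7, Lamtor3 0.12 without mutant 7 and Atp6v0a2 0.10 without control 3. In the first and second technical libraries alone, Pik3r4 stood at -0.36 and -0.15, Ncoa7 at -0.36 and -0.03, and Tfec at 0.62 and 0.19.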

How the data were processed

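RNA from LSCs of 9 mice was measured in 18 libraries, 2 technical libraries per mouse. The authors deposited estimated counts per gene, 11.3% of them not whole numbers; Salmon 1.3, bcl2fastq, FastQC and the mouse build GRCm38 are named in the submitters' processing notes, while the annotation release, the strand setting and any use of molecular identifiers are not stated in the labels. Gene identifiers were shortened to their first 18 characters and matched to the GENCODE annotation on GRCm38 (54094 of 54347 matched).

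Each mouse's 2 columns were added up and rounded to whole counts, genes were kept by filterByExpr (minimum count 10), and mutant and control mice were compared with edgeR 4.0.16 in R 4.3.3 (TMM scaling, quasi-likelihood test, Benjamini-Hochberg adjustment, threshold 0.05). CPM are TMM-scaled, intervals are 95% intervals of the edgeR coefficient, and the floor of 3 counts came to 0.118 to 0.255 CPM. Libraries held 3825500 to 15071673 counts. The fit was tested on simulated data. Mouse numbers differ between groups, so nothing pairs the mice.

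Without strand, reads of overlapping genes cannot be told apart: 16 of the 39 genes overlap another gene, 7 on the same strand, Atg9a with the largest share of counts in the other model. A transcript end of Map1lc3b shares a repeated stretch with 32 other genes, so its counts are uncertain.

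Named genes are, in each role, the 4 with the smallest unadjusted p, plus Tfeb, Tfe3, Sqstm1, Lamp1, Lamp2 and the LC3 and GABARAP genes, and the 2 genes with the smallest unadjusted p of each of the 6 lists; other members are given with their role. The members and lists were chosen with earlier results of these data known. Alternatives were RLE and upper-quartile scaling, DESeq2 1.42.0, limma-voom (limma 3.58.1), other low-count filters, single technical libraries, depth as a covariate, a threshold of 0.1, leaving out each mouse, and, chosen after seeing the data, leaving out the first library of mutant 7 and summing Atg9a with Gm29253. Protein sequences were not analysed here.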

Additional observations from a re-analysis of the deposited data

Results flagged for a closer look

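In 6 of the 78 groups checked (each of the 39 genes in controls and in mutants), 1 mouse lay far from the others of its group; chance flags about 1 in 20 groups. Among the controls, Map1lc3b was low in control 1, at 140.4 CPM against 176.5 to 183.6 CPM in the other 3. Control 3 stood apart for 3 genes: Wipi1 was low at 27.1 CPM against 42.1 to 45.2 CPM, Npc1 was low at 5.65 CPM against 9.13 to 9.79 CPM, and Gaa was high at 48.5 CPM against 39.2 to 40.4 CPM. Among the mutants, Lamp2 was high in mutant 7, at 56.8 CPM against 40.8 to 45.3 CPM, and Gusb was low in mutant 12, at 139.6 CPM against 163.2 to 166.1 CPM.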

How the results depend on the processing

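No member was called in the edgeR fit or in any of 20 alternative fits, and the lowest adjusted p of a named member was 0.249 (Atp6ap1 without control 3). Over the whole table the 9 calls became 88 with DESeq2, 21 with no low-count filter, 3 with library 2 alone, and 0 when genes needed an average of 10 CPM, with library 1 alone, with depth as a covariate or without the first library of mutant 7; leaving out a mouse gave 0 (without control 3, control 4, mutant 7, mutant 8, mutant 10 or mutant 12) to 7. The count of members lower at an unadjusted p under 0.05 was 1; it was 0 with DESeq2, limma-voom, no filter, library 2 alone or without the first library of mutant 7, 2 with library 1 alone, with depth as a covariate or with Atg9a and Gm29253 summed, and 0 to 2 with a mouse left out. The median log2 fold change of each role moved by less than its SD between mice in every alternative, but all 3 medians changed sign in some of them. Of 34 named genes, 24 kept their sign throughout and 10 did not. With library 1 alone the log2 fold change was 0.067 for Tfe3, 0.088 for Map1lc3b and 0.069 for Gabarap; with library 2 alone, 0.051 for Wipi2, -0.051 for Sqstm1 and -0.044 for Snap29. With depth as a covariate it was 0.00 for Tfeb, 0.102 for Tfe3, -0.009 for Sqstm1 and -0.10 for Lamp2. Sqstm1 stood at -0.01 with upper-quartile scaling and at -0.005 with the 10 CPM filter. Without the first library of mutant 7 the values were 0.004 for Tfe3, -0.009 for Lamp2 and 0.018 for Map1lc3b. With a mouse left out, the ranges were -0.288 to 0.009 for Tfeb, -0.077 to 0.056 for Tfe3, -0.017 to 0.043 for Sqstm1, -0.026 to 0.111 for Lamp1, -0.052 to 0.076 for Lamp2, -0.112 to 0.051 for Map1lc3b, -0.069 to 0.009 for Gabarap and -0.125 to 0.016 for Gabarapl1; the cause was not tested. Atg9a had only 5 to 14 counts per mouse. No paired analysis was possible because the groups share no mouse numbers.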
